A study of Mus musculus with 24 samples.

Results

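A set of 10 genes of the white fat cell was followed through bulk RNA sequencing of mouse gastrocnemius, the large calf muscle, as a measure of the fat tissue carried in each sample. The genes were Adipoq, Lep, Cfd, Retn, Plin1, Cidec, Plin4, Lipe, Fabp4 and Pparg, chosen by name as adipocyte markers, and they make up 10 of the 55385 genes counted in each of 24 libraries. All 10 had a count in every library and all 10 passed the filter on low counts, which left 17803 genes tested. Each library came from the muscle of a female C57BL/6J mouse, and 4 mice formed each of 6 groups.

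The young GFP group held mice of 3 to 6 months, the old GFP and old AAV-Kl groups mice of 21 to 24 months, and the oldest-old GFP and oldest-old AAV-Kl groups mice of 27 to 29 months. These 5 groups all received an AAV8 vector by tail vein at 3e+08 vector genomes per mouse, and the muscle was taken 14 days later. The vector carried either GFP, a fluorescent control protein, or the gene of Klotho (Kl), a circulating protein that declines with age. The LP-1 promoter that drives it is active in liver, from which Klotho reaches the muscle through the circulation. The sixth group, young sham, is described by its label alone, with no age in months or procedure given in the sources used here. The comparisons of GFP groups ask how the muscle differs with age, the comparisons of AAV-Kl with GFP ask what Klotho changes at each age, and young GFP against young sham sets the vector control beside the sham.

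Fat cells lie between the bundles of a muscle and on its surface, and a dissected muscle carries an amount of them that varies with the cut as well as with the animal. They store triglyceride in a single large droplet coated by perilipin proteins, release it through lipases, and secrete hormones such as adiponectin and leptin. PPARγ and C/EBPα together switch on this programme when a progenitor becomes a fat cell. Muscle fibres themselves make little of most of these products, although Plin4 coats small droplets in muscle fibres too, and Fabp4 is also made by capillary endothelium and macrophages. In a bulk sample, fewer fat cells and less RNA per fat cell cannot be told apart.

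The stretches before the transcription starts of Adipoq and Lep are shown because these hormone genes of the same cell parted in the results. Each is the 250 bases before the start on the gene's own strand, from RefSeq for GRCm38.p6, at chr16:23146286-23146535 (plus strand) for Adipoq and chr6:29059971-29060220 (plus strand) for Lep. Capitals mark matches to TTNNGNAA, an 8-letter form of the site that C/EBP factors recognise, searched on both strands.
Adipoq: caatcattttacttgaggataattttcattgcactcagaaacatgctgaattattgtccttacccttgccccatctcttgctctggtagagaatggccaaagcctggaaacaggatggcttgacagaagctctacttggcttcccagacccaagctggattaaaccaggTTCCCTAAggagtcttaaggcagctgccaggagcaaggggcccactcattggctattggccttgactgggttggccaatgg
Lep: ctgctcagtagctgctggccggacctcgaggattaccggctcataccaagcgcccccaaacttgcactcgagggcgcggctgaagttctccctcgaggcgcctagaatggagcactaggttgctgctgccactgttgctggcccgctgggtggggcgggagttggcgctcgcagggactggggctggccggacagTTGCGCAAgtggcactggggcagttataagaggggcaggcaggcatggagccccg
The Adipoq stretch holds 1 match that begins 81 bases before the start, Lep holds 1 that begins 55 bases before it, and the Plin1 stretch (not shown) holds 3, at 247, 187 and 58 bases. RefSeq stretches were found for 9 of the 10 genes, and 5 of the 9 held the motif in at least 1 stretch (Adipoq, Cidec, Lep, Plin1 and Pparg). Some genes have several starts, and by stretch it was in 6 of 13. Of all 32851 stretches of this length, 36.8% held it. AGGTCA, the core of the site that nuclear receptors bind, was found in Pparg alone among the 9 genes and in 14% of all stretches. TATAAA, the TATA box, was likewise found in Pparg alone and in 12.4% of all stretches. CAAAGGNCA, a longer form of the site that PPARγ binds with its partner RXR, was in none of the 9 and in 1.71% of all stretches.

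Reads counted on genes ranged from 36415886 to 59733985 per library, with a median of 49486060.5. Libraries of a group differed from each other by more than sampling noise in every pair. Muscle fibre genes were high in all 24 libraries, with Acta1, Ckm, Myh4, Myh1, Tnnt3, Ttn, Mylpf and Tnni2 together taking 116854 to 175029 CPM, the counts per unit of normalized library size used throughout. Several libraries stood apart in RNA of other tissues. The summed level of 8 keratinocyte genes, skin markers, was 394 CPM in young GFP 3, 149 in young sham 4, 134 in young GFP 1 and 90.7 in old AAV-Kl 2, against a median of 30.1 over all libraries. Of these genes Krt77 had 0 reads in 13 libraries and Krt1 in 11, while Trp63 was present in all, at 9.60 to 52.8 CPM. With a median of 24.9 CPM, Trp63 made up most of the sum in a typical library. The summed level of 8 hepatocyte genes was 882 CPM in old GFP 1, 140 in old AAV-Kl 4 and 92.4 in old GFP 4, against a median of 1.555, and Fgb had 0 reads in 9 libraries. The summed level of 6 B cell genes ranged from 0.265 CPM in young GFP 2 to 54.9 in young GFP 3. For the fat cell markers themselves, mouse 2 of the old AAV-Kl group and mouse 2 of the oldest-old AAV-Kl group stood apart within their own groups and had the highest means of all libraries. The second of them, with a mean log2 CPM of 6.48 over the markers, was close to young sham 4 (6.40) and young GFP 2 (6.37). The AAV-Kl comparisons, the fold ranges and part of the correlations are given with and without these 2 libraries. The remaining correlations are given over all 24 libraries only.

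Fat cell markers varied more between mice of a group than between the groups. Adipoq (ENSMUSG00000022878.5, chr16:23146536-23158028 in GRCm38, plus strand) encodes adiponectin, a hormone made almost solely by fat cells. Its level was 14.9, 76.7, 81.8 and 92.4 CPM in the 4 young sham mice and 8.10, 76.7, 41.5 and 6.86 CPM in the 4 young GFP mice. It was 49.2, 23.3, 37.1 and 30.9 CPM in the old GFP mice and 20.1, 112, 21.1 and 26.8 CPM in the old AAV-Kl mice. It was 25.4, 31.3, 12.1 and 19.6 CPM in the oldest-old GFP mice and 9.44, 91.1, 6.04 and 12.1 CPM in the oldest-old AAV-Kl mice. Mouse 2 was far above the other 3 mice in both AAV-Kl groups, young sham 1 was far below its group, and the young GFP group split into a high pair and a low pair. Every group overlapped every other group.

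Plin1 (ENSMUSG00000030546.14, chr7:79720218-79732903, minus strand), the perilipin that coats the large droplet of the fat cell, had a similar order of libraries, with a different lowest one. It ranged from 6.16 CPM in young GFP 1 to 105 CPM in old AAV-Kl 2, which was 17-fold. In young GFP the 4 mice had 6.16, 72.2, 37.8 and 6.74 CPM, close to their Adipoq levels mouse by mouse. In oldest-old AAV-Kl they had 7.43, 101, 7.04 and 10.8 CPM. The number of Plin1 reads per Adipoq read stayed between 0.726 and 1.27 in all 24 libraries, while Adipoq itself ranged 18.5-fold.

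Cidec, a protein that fuses lipid droplets into larger ones, ranged 25.0-fold, from 5.04 CPM in oldest-old AAV-Kl 3 to 126 CPM in old AAV-Kl 2. Cfd, the serine protease adipsin that fat cells secrete, ranged 23.3-fold, from 23.9 CPM in oldest-old AAV-Kl 1 to 556 CPM in old AAV-Kl 2. Retn, the fat cell hormone resistin, ranged 26.6-fold, from 2.39 CPM in oldest-old AAV-Kl 1 to 63.6 CPM in old AAV-Kl 2. All 3 therefore had their highest value in the same mouse and their lowest in the same group. Lipe, the hormone-sensitive lipase, ranged 7.47-fold with a low of 14.3 and a high of 107 CPM, again in old AAV-Kl 2. Fabp4, which carries fatty acids in the cytoplasm, ranged 5.80-fold between 145 and 840 CPM and peaked in oldest-old AAV-Kl 2. Pparg, the receptor that drives fat cell formation, ranged 5.51-fold between 3.80 and 20.9 CPM. Without mouse 2 of both AAV-Kl groups the range was 15.3-fold for Adipoq, 13.6 for Plin1, 15.97 for Cidec, 23.2 for Cfd, 14.3 for Retn, 5.85 for Lipe, 3.59 for Fabp4 and 3.87 for Pparg. The genes with the narrower ranges did not fall as low in the libraries where Adipoq was lowest: the number of Fabp4 reads per Adipoq read was 4.75 at its lowest and 30.1 at its highest.

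**Figure D1:**
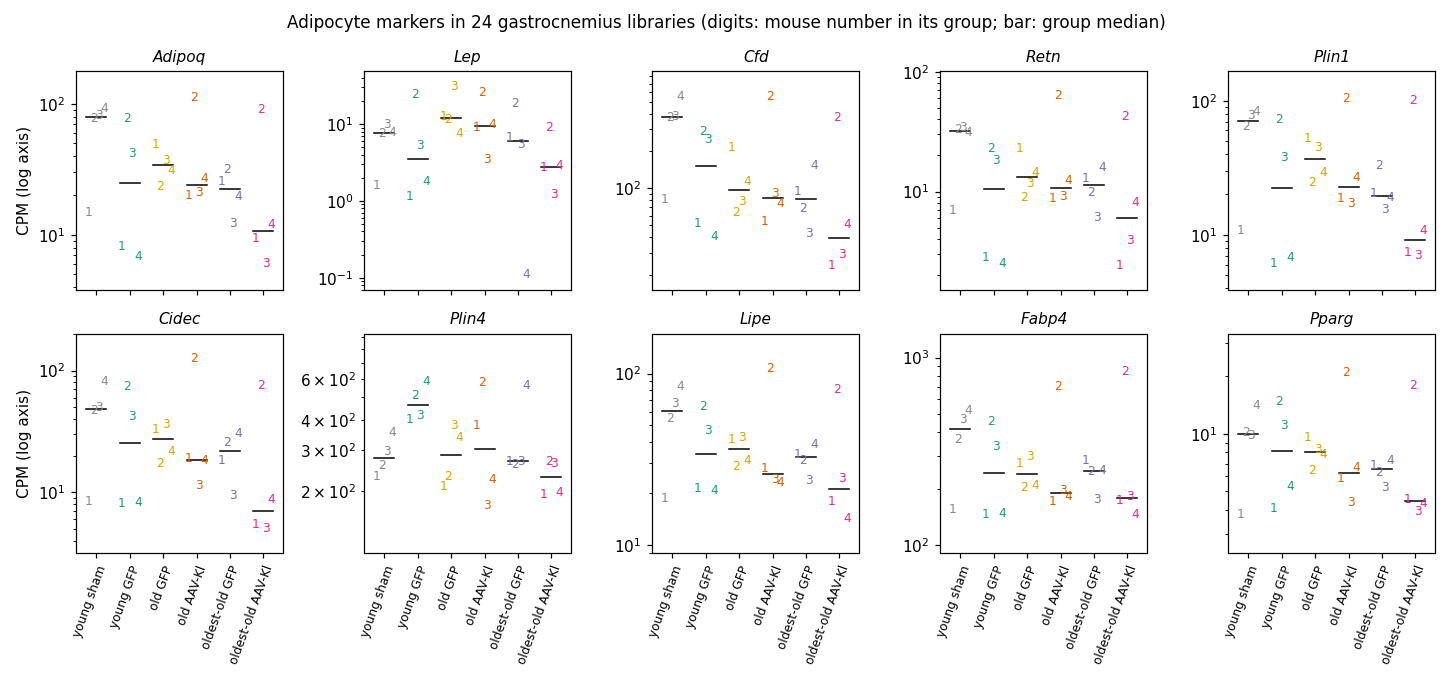
Level of each of the 10 genes in CPM on a log axis in the 6 groups of 4 mice. Each digit is the mouse with that number in its group and the bar is the group median. For the 8 genes other than Lep and Plin4, mouse 2 lies far above the other 3 mice in both AAV-Kl groups, as in Adipoq (112 and 91.1 CPM), and Lep is lowest in oldest-old GFP 4, at 0.109 CPM.

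Per length of exon, the median level over the 24 libraries ran from 93.0 CPM per kilobase for Cfd and 50.8 for Fabp4 through 46.3 for Plin4 and 18.9 for Adipoq to 10.9 for Cidec and 7.66 for Retn. Plin1 and Lipe followed at 5.51 and 5.31, and Pparg and Lep were lowest at 2.28 and 2.23. The ranges over libraries overlapped between every pair of neighbours in this order.

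The spread within groups was large by the standard of other genes. The within-group SD of log2 CPM was 0.77 to 1.73 for the 9 genes other than Plin4, higher than in 92.6% to 99.1% of genes tested, whose median SD was 0.23. Differences between the 6 groups took 6.54% to 26.6% of the variance of these 9 genes. Means of small groups differ by chance too, and no such share over all genes is set beside these values. Plin4 (ENSMUSG00000002831.14, chr17:56100591-56109803, minus strand), a perilipin of small droplets, had a within-group SD of 0.46, and the groups took 39.2% of its variance. Averaged over the 10 genes, the log2 CPM ran from 3.71 to 7.003 over the libraries. The group medians of that average were 6.08 in young sham, 4.80 in young GFP, 5.39 in old GFP, 4.89 in old AAV-Kl, 4.87 in oldest-old GFP and 3.92 in oldest-old AAV-Kl, and all 6 groups overlapped.

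The genes varied together from mouse to mouse. Pearson's r of each gene's log2 CPM with the mean of the other 9, over 24 libraries that share depth and tissue, was 0.98 for Plin1, 0.98 for Adipoq, 0.97 for Cidec, 0.95 for Pparg, 0.94 for Lipe, 0.93 for Retn, 0.92 for Fabp4 and 0.89 for Cfd. Lep was lower at 0.54, with Spearman's rho of 0.64, and Plin4 was lowest at 0.25, with rho of 0.26. With the 2 libraries farthest from the median left out, which are mouse 2 of both AAV-Kl groups, r was 0.98 for Plin1 and Adipoq, 0.48 for Lep and 0.15 for Plin4. Taken within groups, by deviations from the group means, r was 0.53 for Lep and 0.36 for Plin4. All of these values for Lep include oldest-old GFP 4, where Lep had 7 reads. They were not taken without that library. A straight line of each gene's CPM on Adipoq CPM was also drawn. At Adipoq of 0 the line gave 290 CPM for Plin4, 108% of its median. It gave 49.3% of the median for Lep, 46.5% for Pparg, 41.6% for Fabp4 and 38.3% for Lipe. For Plin1 it gave 0.80%, and for Cfd, Cidec and Retn it lay below 0. These are descriptions over mice, and genes from 1 tissue component share their source.

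Lep (ENSMUSG00000059201.12, chr6:29060220-29073877, plus strand), the gene of the satiety hormone leptin, departed from the other hormones of the fat cell. Its level was 1.59, 7.51, 9.86 and 7.68 CPM in young sham and 1.12, 24.6, 5.22 and 1.79 CPM in young GFP. It was 12.7, 11.6, 30.9 and 7.46 CPM in old GFP and 9.05, 25.5, 3.49 and 9.92 CPM in old AAV-Kl. It was 6.68, 18.6, 5.34 and 0.109 CPM in oldest-old GFP and 2.69, 8.90, 1.21 and 2.87 CPM in oldest-old AAV-Kl. The lowest of these, in oldest-old GFP 4, rested on 7 reads, in a muscle with 19.6 CPM of Adipoq and 562.8 CPM of Plin4, the latter far above the other 3 mice of its group.

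Lep was also set against Adipoq in each library. The number of Lep reads per Adipoq read was 0.0831 to 0.121 in young sham, 0.126 to 0.320 in young GFP and 0.241 to 0.834 in old GFP. It was 0.165 to 0.450 in old AAV-Kl, 0.00556 to 0.594 in oldest-old GFP and 0.0976 to 0.285 in oldest-old AAV-Kl. All 4 young sham mice lay below all mice of young GFP, old GFP and old AAV-Kl, though the highest young sham ratio nearly reached the lowest of young GFP. The ranges of young sham and the 2 oldest-old groups overlapped. Of all genes tested, 9.76% had levels that did not overlap between young GFP and young sham, and no such share was taken over ratios. A gap between young sham and young GFP was not particular to leptin. Cidec reads per Adipoq read were 0.561 to 0.872 in young sham and 0.965 to 1.20 in young GFP. These ratios were chosen after their values were seen, so no test is given. The SD of the log2 ratio over all libraries was 1.41 for Lep, 0.21 for Plin1, 0.38 for Cidec, 0.39 for Retn, 0.51 for Cfd and 1.28 for Plin4. The lowest Lep ratio, 0.00556 in oldest-old GFP 4, rested on 7 reads, and the next lowest was 0.0831. That library widens both the range of its group and the SD of Lep, which was not taken without it.

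**Figure D2:**
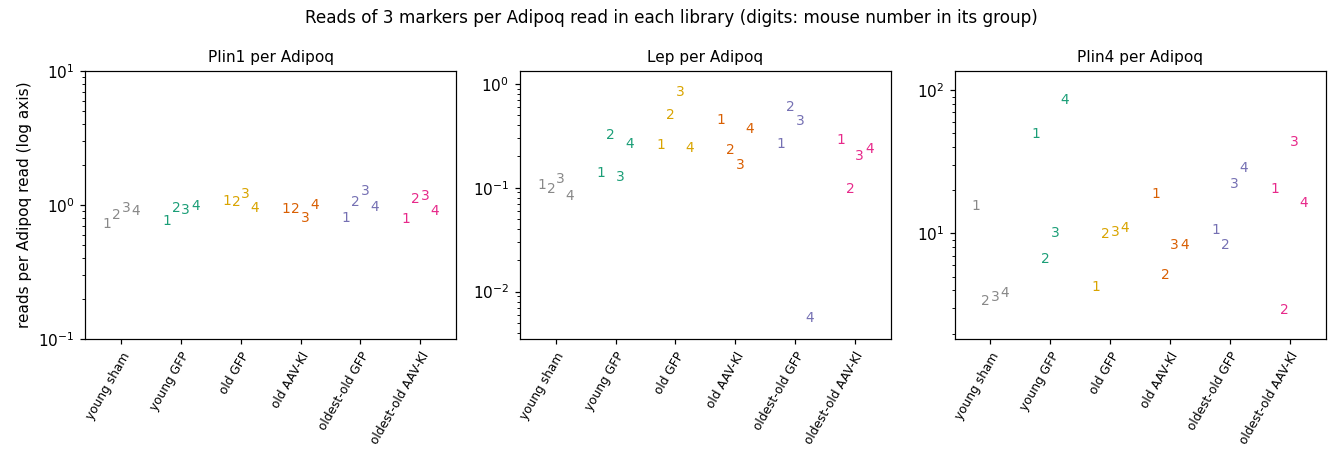
Reads of Plin1, Lep and Plin4 per Adipoq read, on a log axis, by group, where each digit is the mouse with that number. Plin1 stays between 0.726 and 1.27 in all 24 libraries, Lep is lowest, at 0.00556, in oldest-old GFP 4, and the young sham mice lie between 0.0831 and 0.121 for Lep.

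No marker was called in any comparison (edgeR quasi-likelihood test, Benjamini-Hochberg adjusted p under 0.05 over the 17803 genes tested). Of the 70 values of 10 genes in 7 comparisons, the lowest adjusted p was 0.197, for Plin4 in old GFP against young GFP. At an unadjusted p under 0.05 there was 1 marker in that comparison and 1 in young GFP against young sham, Plin4 both times, and 0 in the other 5. Plin4 followed the other markers least (r of 0.25), so its differences need not be those of fat tissue. It is counted in all medians and direction counts of the markers. DESeq2 called 0 of the 70 values, with a lowest adjusted p of 0.125. The intervals that follow run 2 SE to either side of the fitted log2 fold change.

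Between young GFP and old GFP, 4 markers had a higher and 6 a lower fitted level in old mice, with a median log2 fold change of -0.11 beside 0.002 over all genes. Of all genes tested, 4.70% were called in this comparison, 19.1% passed the unadjusted threshold, and 15.6% had groups that did not overlap. Adipoq differed by 0.08 ± 0.82 (log2, SE, n = 4 per group, adjusted p by edgeR 0.978), with an interval from -1.56 to 1.72. Lep differed by 0.94 ± 0.95 (adjusted p by edgeR 0.655), from -0.96 to 2.84. Plin4 was the marker whose groups did not overlap: 403, 508, 418 and 584 CPM in young GFP against 209, 231, 379 and 339 CPM in old GFP, a difference of -0.72 ± 0.31 with an unadjusted edgeR p of 0.0292. Without mouse 2 of young GFP the median over the markers was 0.36 and 9 of 10 were higher in old mice. All 8 hepatocyte genes, among them Alb, were called higher in old GFP. Their summed level was 1.52 to 882 CPM there against 0.445 to 1.495 in young GFP. Macrophage genes summed to 89.4 to 184 CPM in old GFP and 59.1 to 96.8 CPM in young GFP, all 8 with a higher fitted level (median 0.76, 0 called), and keratinocyte genes to 24.7 to 30.1 CPM against 12.6 to 394 CPM. The part of these cells in the result was not tested.

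Between young GFP and oldest-old GFP, 0 markers were higher and 10 lower in the oldest-old mice, with a median of -0.48 beside 0.03 over all genes, and 0 had groups that did not overlap. Over all genes, 14.9% were called, 29.8% passed the unadjusted threshold and 18.4% had groups that did not overlap. Adipoq differed by -0.59 ± 0.83 (log2, SE, adjusted p by edgeR 0.682), from -2.24 to 1.06. Lep differed by -0.10 ± 0.95 (adjusted p by edgeR 0.963), from -2.002 to 1.81. Plin4 differed by -0.50 ± 0.31 (adjusted p by edgeR 0.298), from -1.11 to 0.12, with 267, 259, 268 and 563 CPM in the oldest-old GFP mice. The direction rested on mouse 2 of young GFP: without it the median was 0.14, with 7 markers higher and 3 lower. The summed keratinocyte level was 12.6 to 394 CPM in young GFP and 26.2 to 35.5 in oldest-old GFP, with 4 of 8 genes called lower (Krt14, Krt10, Krt5 and Lor). Macrophage genes summed to 107 to 165 CPM in oldest-old GFP and 59.1 to 96.8 CPM in young GFP, all 8 with a higher fitted level (median 0.83) and 0 called. The part of these cells in the result was not tested.

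Between old GFP and oldest-old GFP, 1 marker was higher and 9 lower in the oldest-old, with a median of -0.37 beside 0.02 over all genes. Of all genes tested, 0.00562% were called, which is 1 gene, 12% passed the unadjusted threshold and 5.65% had groups that did not overlap, against 0 of the 10 markers. Adipoq differed by -0.67 ± 0.83 (adjusted p by edgeR 0.792), from -2.32 to 0.98. Lep differed by -1.03 ± 0.95 (adjusted p by edgeR 0.705), from -2.94 to 0.87, and Plin4 by 0.23 ± 0.31 (adjusted p by edgeR 0.813). Without oldest-old GFP 4 the Plin4 difference was -0.13 and the median over the markers -0.60. Without oldest-old GFP 3 that median was -0.17, and without old GFP 1 it was also -0.17. All 8 hepatocyte genes had a lower fitted level in the oldest-old (median -7.89, 0 called), with sums of 0.965 to 1.27 CPM against 1.52 to 882 in old GFP, and their part in the result was not tested.

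With AAV-Kl in old mice, 9 markers were higher and 1 lower than with GFP, with a median of 0.35 beside 0.01 over all genes, and 0 had groups that did not overlap. Over all genes, 0% were called by edgeR, 2.15% passed the unadjusted threshold, which is 383 genes, and 1.68% had groups that did not overlap. DESeq2 called 0 genes here too. Adipoq differed by 0.36 ± 0.82 (log2, SE, adjusted p by edgeR 0.9998), from -1.28 to 1.99. Lep differed by -0.38 ± 0.94, from -2.26 to 1.49, and Plin4 by 0.23 ± 0.31, from -0.39 to 0.84, both with an adjusted edgeR p of 0.9998. With the 2 libraries of most marker RNA left out, 0 markers were higher and 10 lower, with a median of -0.58, an Adipoq difference of -0.63 ± 0.65 and a Plin4 difference of -0.15 ± 0.29. Adipoq was then 20.1, 21.1 and 26.8 CPM in the remaining 3 old AAV-Kl mice against 23.3 to 49.2 in old GFP. Both libraries were chosen for their high marker RNA, and both are AAV-Kl mice. Leaving them out was bound to lower the AAV-Kl levels, so this direction is not a result by itself. Young GFP 2 and young sham 4, also high in marker RNA, stayed in. Macrophage genes summed to 111 to 243 CPM in old AAV-Kl and 89.4 to 184 CPM in old GFP, and hepatocyte genes to 6.40 to 140 CPM against 1.52 to 882 CPM (0 called in either list). The part of these cells in the result was not tested.

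With AAV-Kl in oldest-old mice, 8 markers were higher and 2 lower than with GFP, with a median of 0.31 beside 0.01 over all genes. Of all genes tested, 0.0112% were called, which is 2 genes, 8.08% passed the unadjusted threshold and 2.65% had groups that did not overlap, against 0 markers. Adipoq differed by 0.43 ± 0.82 (log2, SE, adjusted p by edgeR 0.908), from -1.22 to 2.08. Lep differed by -0.95 ± 0.97 (adjusted p by edgeR 0.823), from -2.89 to 0.99. Plin4 differed by -0.56 ± 0.31 (adjusted p by edgeR 0.658), with 193, 267, 261 and 198 CPM in the AAV-Kl mice. With the same 2 libraries left out, 0 markers were higher and 10 lower, with a median of -1.24. This fit too was bound to lower the AAV-Kl levels, because the libraries were chosen for their high marker RNA. Adipoq then differed by -1.27 ± 0.67 (adjusted p by edgeR 0.639), and Cidec by -1.71 ± 0.72 (adjusted p by edgeR 0.566). The sign of the median and of the 8 higher markers thus turned without 1 mouse of 4 in the AAV-Kl group. Lep and Plin4 were lower with and without it, and neither version passed the threshold. With all mice kept, a fit with a term for the replicate number (replicate block) also turned the median, to -0.32. Macrophage genes summed to 55.0 to 264 CPM in these AAV-Kl mice and 107 to 165 CPM in the GFP mice, and their part in the result was not tested.

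**Figure D3:**
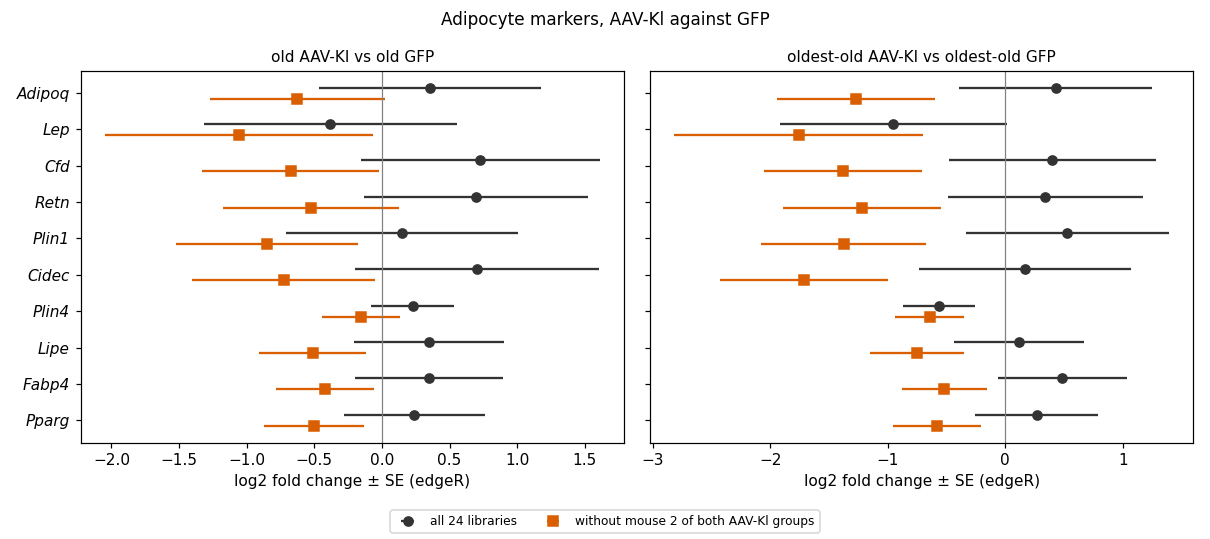
Fitted log2 fold change of each of the 10 genes, AAV-Kl against GFP, in old mice (left) and oldest-old mice (right), with bars of 1 SE. Circles are the fit on all 24 libraries and squares the fit without mouse 2 of both AAV-Kl groups, where all 10 genes lie below 0 in both panels. These mice were left out for their high marker RNA, which was bound to lower the AAV-Kl levels.

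The response to AAV-Kl was compared between the ages by an interaction term. The median over the markers was -0.28 (oldest-old minus old) beside 0.0001 over all genes, 4 were higher and 6 lower, and no marker was called. By comparison 0.00562% of all genes were called, which is 1 gene, and 5.76% passed the unadjusted threshold. Adipoq differed by 0.07 ± 1.16 and Lep by -0.57 ± 1.34, so the interval for Adipoq ran from -2.25 to 2.39. Plin4 differed by -0.79 ± 0.44 (adjusted p by edgeR 0.880). Without old AAV-Kl 2 alone the median was 0.89, with 9 markers higher and 1 lower, and without oldest-old AAV-Kl 2 alone it was -1.45. Without both libraries it was -0.58, with 10 of 10 lower.

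Young GFP mice had lower fitted levels than young sham mice for 8 markers and higher for 2, with a median of -0.52 beside -0.03 over all genes. Among the genes tested, 0.472% were called, 13.4% passed the unadjusted threshold and 9.76% had groups that did not overlap. Adipoq differed by -0.997 ± 0.82 (log2, SE, adjusted p by edgeR 0.597), from -2.65 to 0.65. Lep differed by 0.29 ± 0.95 (adjusted p by edgeR 0.910), the opposite sign to Adipoq. Plin4 was the marker whose groups did not overlap, at 230, 257, 296 and 357 CPM in young sham against 403 to 584 CPM in young GFP, and it differed by 0.75 ± 0.31 with an unadjusted edgeR p of 0.0250 and an adjusted p of 0.301. B cell genes summed to 32.1, 42.2 and 48.8 CPM in the same 3 young sham mice that had high Adipoq and to 1.68 in young sham 1, where Adipoq was low. The young GFP mice did not show this match throughout. Mouse 3 had a B cell sum of 54.9 CPM with 41.5 CPM of Adipoq. Mouse 2 had the lowest sum of all libraries, 0.265 CPM, with 76.7 CPM of Adipoq. Macrophage genes summed to 96.4 to 184 CPM in young sham and 59.1 to 96.8 CPM in young GFP, all 8 with a lower fitted level in young GFP (median -0.81, 0 called). The part of these cells in the result was not tested. The median over the markers was -1.25 without young GFP 2, -0.81 without young sham 1, -0.28 without young GFP 1 or 4, and -0.26 without young sham 4. The comparisons of young GFP with young sham, old GFP and oldest-old GFP share the young GFP mice, so their values are not independent.

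Genes of the fat cell outside the 10 showed the same mouse-to-mouse pattern. The summed level of 10 further adipocyte genes ranged from 44.4 to 405 CPM and its log2 had r of 0.97 with the mean of the markers over 24 libraries and 0.96 without mouse 2 of both AAV-Kl groups. Of those 10 genes, 6 had r over 0.9: Trarg1, Cebpa, Slc7a10, Acvr1c, Pck1 and Adrb3. Cebpa, the transcription factor C/EBPα, ranged from 6.89 CPM in oldest-old AAV-Kl 1 to 65.2 CPM in old AAV-Kl 2. Adrb3, the β3-adrenergic receptor through which noradrenaline starts lipolysis, ranged from 0.772 to 32.7 CPM, highest in oldest-old AAV-Kl 2. Npr3, a clearance receptor for natriuretic peptides, was lowest of the 10 at r of 0.35. It was the member of that list called in a comparison, higher in oldest-old than in young GFP mice by 1.28 ± 0.40 (adjusted p by edgeR 0.0360). In that comparison the list's median was -0.51 and 14.9% of all genes were called.

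Across all other genes tested, those most like the mean of the markers by Pearson's r over 24 libraries were Prkar2b (0.99), Ankef1 (0.99), Trarg1 (0.98), Slc1a5 (0.98), Cebpa (0.97), Pde3b (0.97), Slc7a10 (0.97), Smoc1 (0.97), Lgals12 (0.97) and Aoc3 (0.97). Without mouse 2 of both AAV-Kl groups these 10 had r of 0.96 to 0.99. Of 17793 genes, 78 had r over 0.9 and 0 had r under -0.9. The lowest were Cops3 (-0.81), Wdr37 (-0.78), Zfp438 (-0.75), Gm8055 (-0.74) and Gm15294 (-0.74), and Cops3 ranged only from 54.1 to 67.1 CPM. Prkar2b, a regulatory subunit of protein kinase A, ranged from 1.73 to 44.5 CPM, and Pde3b, the phosphodiesterase through which insulin restrains lipolysis, from 2.28 to 32.5 CPM.

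The 8 genes of fatty acid synthesis followed the markers to different degrees, with r from -0.32 to 0.93 and a median of 0.79. Of these, 1 had r over 0.9. Their summed level ranged from 494 to 3858 CPM, with r of 0.90 (0.87 without mouse 2 of both AAV-Kl groups), and both extremes lay in AAV-Kl groups. Scd1, which puts the first double bond into fatty acids, had r of 0.93 (0.90 without these mice) and ranged from 55.5 CPM in young GFP 1 to 2431 CPM in old AAV-Kl 2. Fasn, the fatty acid synthase, had r of 0.83 (0.77 without them), reached 757 CPM in oldest-old AAV-Kl 2 and was 13.7 CPM in oldest-old AAV-Kl 1. It was 135 CPM in young sham 4, the mouse with the most Adipoq of its group, against 569 and 645 CPM in young sham 2 and 3. Scd1 and Me1 had the highest median levels of the list, 371 and 279 CPM, so they weigh most in the sum. Me1 had r of 0.48 (0.41 without mouse 2 of both AAV-Kl groups). Mlxipl, the sugar-sensing factor ChREBP that muscle fibres also make, had r of -0.32.

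Other genes of lipid handling followed the markers to very different degrees. Among 12 genes of triglyceride synthesis and storage, Dgat1 (r of 0.89), Bscl2 (0.87), Agpat2 (0.86) and Dgat2 (0.82) were highest. Lpl, the lipoprotein lipase, had r of 0.48, Cd36, the fatty acid transporter, 0.35, and Plin5, a perilipin of oxidative muscle, -0.15. Without mouse 2 of both AAV-Kl groups Dgat1 had r of 0.85, Bscl2 0.83, Agpat2 0.85, Dgat2 0.76, Lpl 0.46, Cd36 0.13 and Plin5 -0.22. Among the lipolysis genes Pde3b had r of 0.97 (0.96 without these mice), and Pnpla2, the first lipase of the pathway, had 0.35 (0.14 without them). Adipogenic transcription factors ran from -0.38 for Cebpb to 0.97 for Cebpa, with 1 of 10 over 0.9. In oldest-old against young GFP mice, where 14.9% of all genes were called, G0s2, an inhibitor of the Pnpla2 lipase, was called higher by 1.24 ± 0.31 (adjusted p by edgeR 0.0112). No gene of triglyceride synthesis, fatty acid synthesis or the adipogenic factors was called in any of the 7 comparisons. The share of all genes called ran from 0% to 14.9% over these comparisons, so in those near 0% a count of 0 says little.

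**Figure D4:**
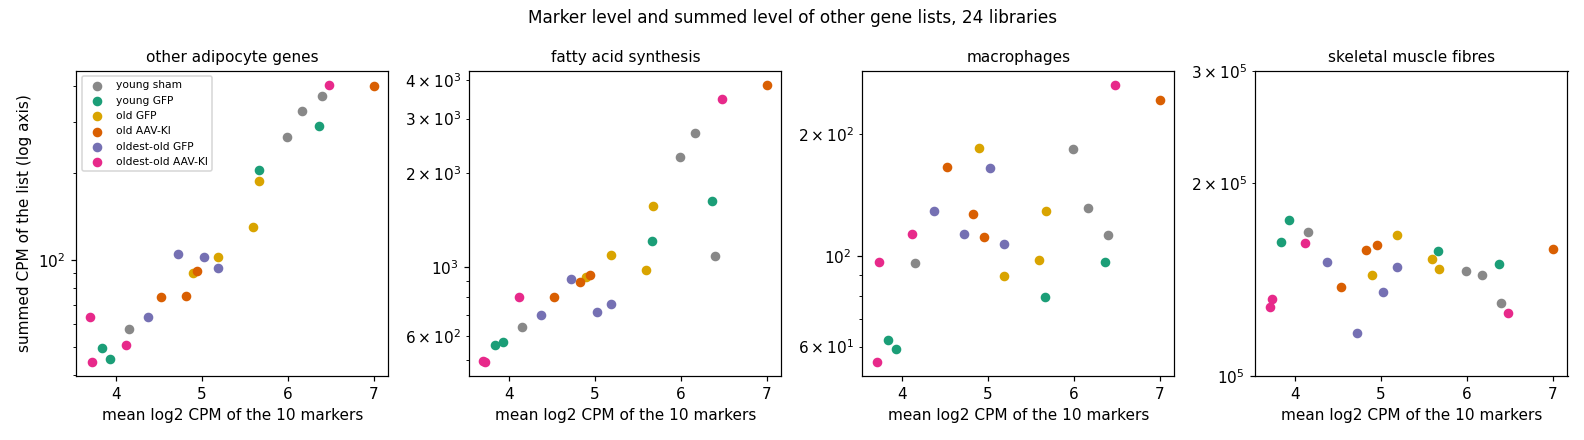
Summed CPM of 4 gene lists (log axis) against the mean log2 CPM of the 10 markers in 24 libraries, with a point for each library coloured by group. The further adipocyte genes (r of 0.97) and fatty acid synthesis genes (0.90) are higher where the markers are higher, macrophage genes follow less closely (0.58), and muscle fibre genes do not follow (-0.13).

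Ucp1, the uncoupling protein that defines brown fat, separated the 2 libraries with the most marker RNA. It had 792 reads, 13 CPM, in oldest-old AAV-Kl 2 and 0 reads in old AAV-Kl 2, and in the other 22 libraries it had 0 to 8 reads. Cidea, another gene of brown and beige fat, was 10.1 CPM in oldest-old AAV-Kl 2 and 0.193 to 1.76 CPM in the other 23 libraries. Otop1, also of brown and beige fat, was 2.86 CPM there and at most 1.36 CPM elsewhere. Dio2, which activates thyroid hormone, was 6.44 CPM there and 0.685 to 5.18 CPM elsewhere, so it stood apart less. The brown fat genes as a sum had r of only 0.14 with the markers. Cox8b, which muscle also makes, took 121 to 204 CPM of that sum and had r of 0.04. Taken singly, Otop1 had r of 0.73, Cidea 0.50, Elovl3 0.18 and Dio2 -0.09. These brown fat values were chosen for mention after they were seen, and they rest on 1 mouse.

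Markers of other cells were set beside the fat cell markers over the 24 libraries. The summed macrophage level ranged from 55.0 to 264 CPM with r of 0.58, and its 2 highest values, 264 and 243 CPM, were in the 2 libraries with the most marker RNA. Without those 2 its r was 0.40, that of Schwann cell genes 0.61, tenocyte genes 0.42 and endothelial genes -0.02. Fibro-adipogenic progenitors, the cells from which fat in muscle arises, ranged from 103 to 229 CPM with r of 0.39, and 1 of their 8 genes, Hic1, was called higher in oldest-old than in young GFP mice, where 14.9% of all genes were called. Endothelial genes had r of 0.21, tenocyte genes 0.23, Schwann cell genes 0.44, B cell genes 0.44 and hepatocyte genes 0.38. Keratinocyte genes had r of 0.01 and muscle fibre genes -0.13. The keratinocyte sum was mostly Trp63 in a typical library, and Trp63 had r of -0.42. The other keratinocyte genes had r from 0.18 for Krt1 to 0.34 for Krt14. In the oldest-old against young GFP comparison, Vwf and Emcn of the endothelium and the myosin Myh1 were called higher, and the myosin Myh4 and Cox8b lower. The part of these cells in the marker levels was not tested.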

How the data were processed

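Gastrocnemius RNA of 24 mice was sequenced, and the authors aligned reads to the mouse genome (mm10, GRCm38) with STAR and deposited, per library, its counts of reads per gene. Tool versions and the annotation release were not given in the sources used here. Counts without strand (the second column) were used. The first-strand column held 49.8% to 50.4% of stranded reads, so a gene and its antisense partner could not be told apart. Reads that overlap 2 genes are counted for neither, which touches Pparg (Gm44079), Lipe (4732471J01Rik) and Plin4 (Hdgfl2). Reads on genes were 74.7% to 77.0% of all. Rows for unmapped or ambiguous reads were left out. Names came from GENCODE M21, which matched 55144 of 55385 IDs.

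Groups came from the sample labels. A single edgeR 4.0.16 quasi-likelihood fit (R 4.3.3) on 24 libraries used TMM normalization, the filterByExpr filter and Benjamini-Hochberg adjustment at 0.05, and SE is the log2 fold change over the root of F. CPM used TMM library sizes, log2 CPM a prior count of 2, and values per length the union of exons. DESeq2 1.42.0, other scaling, filters, strand columns and sample sets were alternatives. The 4 samples of a group are separate mice. The fit was tested on simulated counts. The members and gene lists were chosen with earlier results of these data known. Named genes were all 10 markers, the 10 genes most and 5 least like their mean, list genes called (at most 4 per list and comparison), and examples chosen after their values were seen, such as Ucp1. The result of 1 gene of these lists is not reported here.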

Additional observations from a re-analysis of the deposited data

Results flagged for a closer look

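In 18 of the 60 groups of 4 values (10 genes in 6 groups) 1 mouse lay so far from the others that its gap to the nearest, divided by the range of the group, passed Dixon's critical value. The ratios were taken on CPM, where a high value stands farther apart than on the log2 scale. In oldest-old AAV-Kl, for example, the log2 CPM of Adipoq was 3.24, 6.51, 2.60 and 3.60. Ratios on log2 CPM were not taken. For normally distributed values chance flags about 1 in 20 groups, and that rate need not hold for CPM. Since the 10 genes moved together, the 18 are not separate events.

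Of these, 16 were mouse 2 of the 2 AAV-Kl groups, high in 8 genes each. In old AAV-Kl 2 the ratio of gap to range was 0.927 for Adipoq, 0.888 for Plin1, 0.955 for Fabp4, 0.928 for Cfd, 0.935 for Cidec, 0.863 for Pparg, 0.931 for Retn and 0.945 for Lipe. In oldest-old AAV-Kl 2 it was 0.929 for Adipoq, 0.960 for Plin1, 0.947 for Fabp4, 0.923 for Cfd, 0.948 for Cidec, 0.958 for Pparg, 0.856 for Retn and 0.850 for Lipe. Lep and Plin4 did not pass in either.

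Retn was low in young sham 1, at 6.89 CPM with a ratio of 0.882, the mouse with the least Adipoq of its group. Plin4 was high in oldest-old GFP 4, at 563 CPM with a ratio of 0.971, the mouse in which Lep had 7 reads.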

How the results depend on the processing

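No marker passed the threshold in any alternative: over 1260 values the lowest adjusted p was 0.0551, for Plin4, and 128 turned direction. Markers other than Lep had at least 104 reads in every library. The cause of the changes below was not tested.

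Same-numbered mice did not deviate together (r from -0.53 to 0.20 over genes). With a replicate block the median log2 fold change of the markers was 0.23, -0.12, -0.52, -0.11, -0.32 and -0.74 for old and oldest-old against young GFP, oldest-old against old GFP, AAV-Kl in old and oldest-old mice, and young GFP against sham. Under the block the log2 fold change turned for Lep to 0.17 in oldest-old against young GFP and -0.42 in young GFP against sham, and for Adipoq to -0.28 and -0.25 with AAV-Kl in old and oldest-old mice. Genes called under the block fell to 0 in oldest-old against old GFP and in the interaction.

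Without the 2 libraries of most marker RNA, an alternative chosen after seeing the data, Adipoq turned to -0.63 and Plin4 to -0.15 in old mice, Adipoq to -1.27 in oldest-old mice and to -0.64 in the interaction, and the marker median in oldest-old mice to -1.24. Genes called were then 2 in oldest-old against old GFP, 1 with AAV-Kl in oldest-old mice and 0 in the interaction.

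Counts of genes called moved by over 1.5 times elsewhere. For old against young GFP (837) they were 553 without a filter, 551 and 549 in the strand columns and 1275 with compared groups only. For oldest-old against young GFP (2649) they were 1755 without a filter and 1249 with compared groups only. For oldest-old against old GFP (1) they were 120 by DESeq2 and 0 without a filter, in both strand columns and with compared groups only. For AAV-Kl in oldest-old mice (2) they were 25 by DESeq2, 1 in both strand columns and 0 with compared groups only. For young GFP against sham (84) they were 290 by DESeq2 and 174 with compared groups only, and for the interaction (1) they were 0 in the third column and with compared groups only.

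Leaving out each mouse in turn gave 366 to 679 genes for old against young GFP, 1674 to 2755 for oldest-old against young GFP, 0 to 3 for oldest-old against old GFP, 1 to 4 for AAV-Kl in oldest-old mice, 1 to 114 for young GFP against sham and 0 to 1 for the interaction. The marker median ran from -1.24 to 0.60 for AAV-Kl in oldest-old mice and from -1.45 to 0.89 for the interaction. Adipoq ran from -0.27 to 0.90 and -0.94 to 0.23 for old and oldest-old against young GFP, from -0.63 to 0.59 and -1.27 to 0.77 for AAV-Kl in old and oldest-old mice, and from -1.62 to 1.06 for the interaction. Lep ran from -1.02 to 1.47 for oldest-old against young GFP, from -1.06 to 0.18 for AAV-Kl in old mice, from -1.27 to 0.68 for young GFP against sham and from -1.37 to 0.35 for the interaction. Plin4 ran from -0.13 to 0.39 for oldest-old against old GFP and from -0.16 to 0.44 for AAV-Kl in old mice.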
